A study of Mus musculus with 4 samples.

Results

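Choroid plexus-marker spots of the *Nf1*+/- mouse brain were the subject, namely Visium spots that held a unique molecular identifier (UMI, a single captured mRNA molecule) of 3 or more out of 10 epithelial genes of this tissue. The 10 markers were the receptors *Prlr* and *Folr1*, the channel and transporter genes *Kcnj13*, *Clic6* and *Slc4a5*, the homeobox gene *Otx2*, the secreted *Sostdc1*, the coagulation factor gene *F5*, and *Kl* and *Tmem72*. There were 265 of them among the 2968 spots with at least 500 UMIs in sections 1 and 4, with 189 in section 1 and 76 in section 4. The comparison group was the 1581 spots of the same sections with none of the 10 markers (617 and 964), called marker-free spots. The spots were chosen by their own counts of the 10 markers, so the levels of those markers are no finding and the genes described are the others. Genes made by the same cells as the markers are also drawn in by that choice.

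The series held 4 fresh frozen brain sections of 10 µm, all from mice heterozygous for *Nf1*, the gene of the RAS regulator neurofibromin, and each barcoded spot captured the mRNA of the tissue above it. Every section carried the same heterozygous genotype, no treatment is named, and wild-type tissue was not analysed here. The labels give no age, sex or mouse for a section, so n counts sections. The p-values measure the change between spot groups against how far that change differed between sections 1 and 4. This spread was moderated by one shared across genes, and it may be technical. Sections 2 and 3 held 4 and 7 choroid plexus-marker spots and entered only where stated.

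The choroid plexus is a frond of vascular tissue inside each brain ventricle. Its single layer of epithelium, joined by tight junctions and carrying cilia, makes the cerebrospinal fluid by moving ions and water out of fenestrated capillaries, and it exports carrier proteins such as transthyretin into the fluid. The epithelium is continuous with the ependyma, the ciliated lining of the ventricle wall. A Visium spot is wider than this layer and may hold epithelium, stroma, ependyma and nearby brain together, so fewer cells of a type and less RNA per cell cannot be told apart in it.

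The sums over choroid plexus-marker spots were 3338161 UMIs in section 1 and 592969 in section 4, against 8268241 and 13183854 in marker-free spots. The median choroid plexus-marker spot was deeper than the median marker-free spot in section 1 (15886 and 13290 UMIs) and shallower in section 4 (6566 and 12420 UMIs). Levels are given as UMIs per 1000000 UMIs of the spot group (CPM). Sections 1 and 4 shared 427 spot barcodes, none of them between choroid plexus-marker spots.

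The label was checked with genes that the rule did not use. *Ttr*, the gene of transthyretin and the most abundant mRNA of choroid plexus epithelium, made up a median of 22.6% of the UMIs of a spot with 8 to 10 markers in section 1 (35 spots) and 27.9% in section 4 (13 spots). In marker-free spots the medians were 0.369% and 0.0770%. The level climbed with each step in the number of markers in both sections, but not evenly. In section 1 the 79 spots with exactly 3 markers, just inside the rule, had a median of 0.464% and the 223 spots with 2 markers, just outside it, one of 0.384%, both near the marker-free level. In section 4 the corresponding medians were 1.81% and 0.163%. The name choroid plexus therefore fitted the 3-marker spots of section 4 better than those of section 1, and 116 of the 189 spots of section 1 and 42 of the 76 of section 4 had only 3 or 4 markers. Results are given below also for the 35 and 13 spots with at least 8 markers, a setting added after the data were seen.

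**Figure D1:**
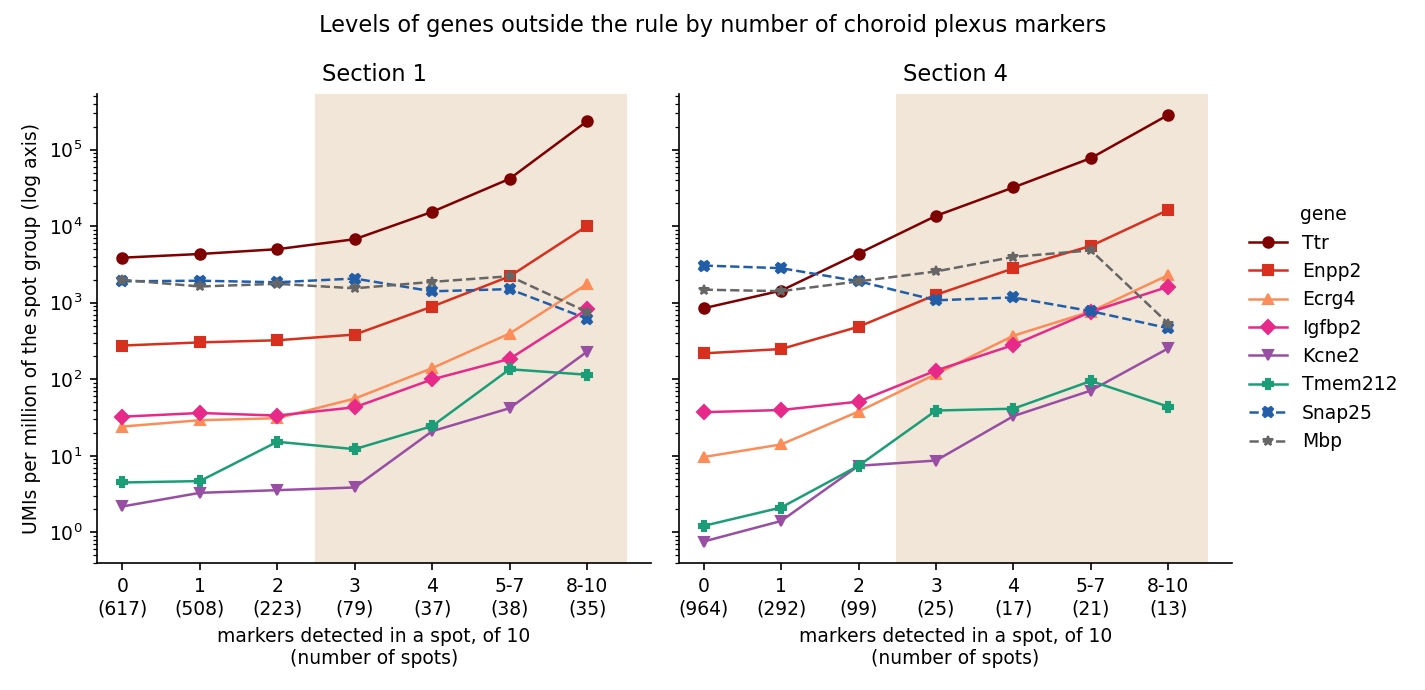
Level of 8 genes outside the rule (CPM, log axis) against the number of the 10 markers detected in a spot, with the number of spots in parentheses and the choroid plexus-marker spots on the shaded ground. *Ttr* went from 3871 to 234745 CPM in section 1 and from 845 to 284514 CPM in section 4, while the neuronal gene *Snap25* went from 1901 to 618 and from 3055 to 464 CPM.

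The same stepped pattern was seen in another secreted product, *Enpp2*. *Enpp2*, which encodes the lysophospholipase autotaxin, stood at 275, 383, 889, 2206 and 10033 CPM in section 1 spots with 0, 3, 4, 5 to 7 and 8 to 10 markers. In section 4 it stood at 218, 1269, 2811, 5510.5 and 16301 CPM. *Tmem212*, an ependymal marker, behaved otherwise and was highest at 5 to 7 markers in both sections, with 135 and 94.9 CPM, against 114 and 43.7 CPM at 8 to 10 markers. These levels rest on few UMIs, 71 and 12 at 5 to 7 markers and 78 and 5 at 8 to 10. *Mbp*, the myelin basic protein gene of oligodendrocytes, was also highest at 5 to 7 markers, with 2217 and 4831 CPM, and lowest at 8 to 10 markers, with 757 and 533 CPM. The secreted product gene *Rarres2* did not follow *Enpp2* either. It had 264 and 237 CPM at 5 to 7 markers and 261 and 105 CPM at 8 to 10 markers. Spots with many markers thus had the highest levels of *Ttr* and *Enpp2*, whereas the levels of *Tmem212* and *Mbp* were highest at a middling number.

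To ask which genes mark choroid plexus tissue in these brains, the UMIs of each spot group were added up within a section, and the sums were tested with edgeR's quasi-likelihood method, section being a block. Among 13534 genes tested, 630 were higher (4.65%) and 74 lower (0.547%) in choroid plexus-marker than in marker-free spots at an adjusted p-value under 0.05. All 704 had the same direction in both sections, but a paired test on 2 sections favours such genes, so this is no separate support. Over all genes tested, the log2 ratios of sections 1 and 4 had a Pearson correlation of 0.68. At an unadjusted p under 0.05 there were 1931 genes. Of the higher genes, 367 differed by a log2 fold change over 2 and 112 by one over 4, whereas 51 of the lower genes differed by more than 1 in the other direction. The median over all genes tested was -0.05. The differences were larger in section 4 for 581 of the 630 higher genes, with a median log2 ratio of 2.98 against 1.91 in section 1, and for 73 of the 74 lower genes, with -1.83 against -0.54. With at least 8 markers, 1108 of 12957 genes were higher (8.55%) and 1087 lower (8.39%), the background for each count at that setting, and 549 of the 630 and 62 of the 74 were among them. The median over all genes tested was -0.20 at that setting. *Ttr* took up a large part of the UMIs of those spots, which lowers the CPM of the other genes there. With only the spots of 3 or 4 markers, 54 of 13181 were higher (0.41%) and 14 lower (0.106%). In both of these settings the fit used only a spread shared across genes, so their counts are not on the same footing as 630 and 74.

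**Figure D2:**
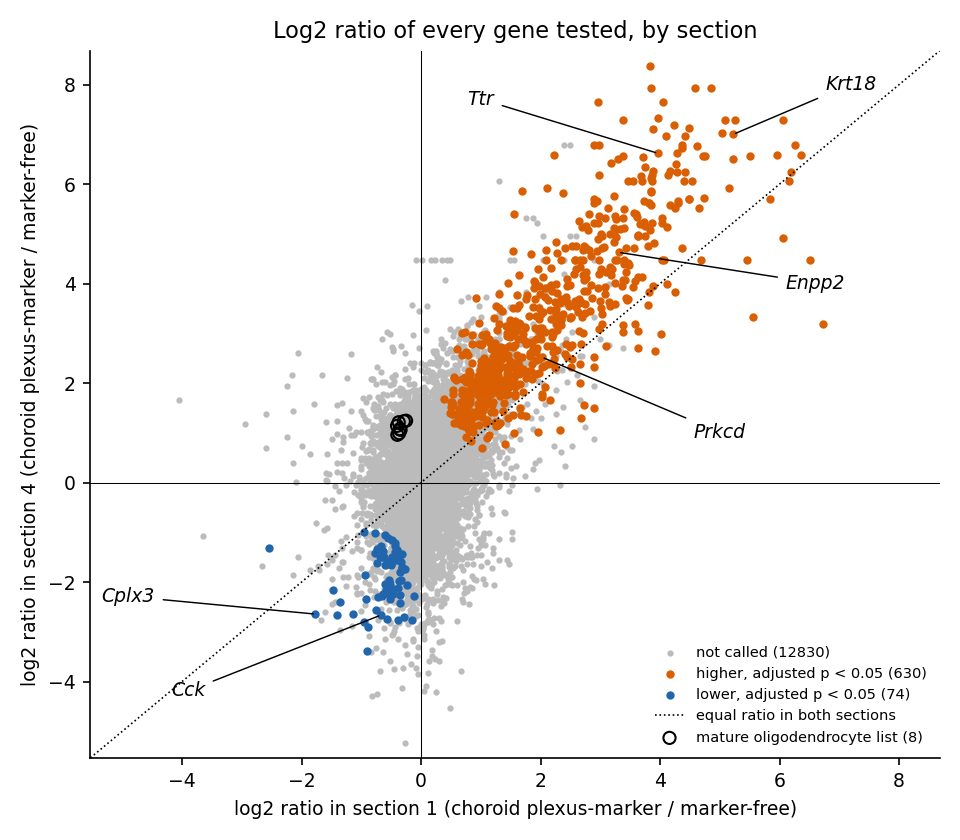
Log2 ratio of choroid plexus-marker over marker-free spots in section 1 and in section 4 for each of the 13534 genes tested, with 0.5 UMI added to every count. Called genes lie in the upper right (630) or lower left (74), most of them above the dotted line of equal ratios where higher and below it where lower, and the 8 circled oligodendrocyte genes lie below 0 in section 1 and above 0 in section 4.

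The largest rises were led by *Krt18*, a keratin of simple epithelia (ENSMUSG00000023043, mm10 chr15:102028216-102032026). It was counted at 33.9 and 62.4 CPM in the choroid plexus-marker spots of sections 1 and 4 and at 0.847 and 0.455 CPM in the marker-free spots. The log2 fold change was 6.16 (standard error, SE, 0.43). *Krt18* passed the filter on low counts only through the choroid plexus-marker spots, so its call is not used as support and its p-value is left out. *2900040C04Rik* (ENSMUSG00000115625, chr14:76251462-76252330) had 110 and 197 CPM against 3.99 and 2.05 CPM, a log2 fold change of 5.61. *Calml4*, a calmodulin-like gene (ENSMUSG00000032246), had 174 and 201 CPM against 7.01 and 1.82 CPM, a log2 fold change of 5.51. All 3 genes were at least 20 times higher in the choroid plexus-marker spots of each section.

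*Ttr* (ENSMUSG00000061808) was by far the most abundant of the 15 largest rises. Its level was 60246 and 83244 CPM in choroid plexus-marker spots and 3871 and 845 CPM in marker-free spots, a log2 fold change of 5.25 (SE 0.51, adjusted p = 1.75e-08). The marker-free level of section 1 was far above those of sections 2 and 3, which were 6.86 and 32.2 CPM. Among the 15 genes, 9 had higher marker-free levels in both sections 1 and 4 than in either of sections 2 and 3, and 13 had their highest marker-free level in section 1. The same counts were not made over all genes tested, so they are not read as a trait of these 15. The source of *Ttr* in marker-free spots was not tested.

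The other rises joined epithelial, secreted and ciliary genes. *Kcne2*, a regulatory subunit of potassium channels (ENSMUSG00000039672, chr16:92292389-92298133), had 58.7 and 74.2 CPM against 2.18 and 0.759 CPM, a log2 fold change of 5.50. *Aqp1*, the water channel of the apical membrane (ENSMUSG00000004655, chr6:55336299-55348555), had 23.4 and 54.0 CPM against 1.45 and 0.303 CPM, a log2 fold change of 5.39. *Ecrg4*, the precursor of a secreted peptide (ENSMUSG00000026051, chr1:43730602-43742564), had 469 and 729 CPM against 24.1 and 9.63 CPM, a log2 fold change of 5.19. *Cldn2*, the claudin that forms a paracellular cation channel (ENSMUSG00000047230, chrX:139800808-139811386), had 41.3 and 62.4 CPM against 2.78 and 0.910 CPM, a log2 fold change of 4.77. These genes of water, ion and peptide export were separated by more than 10-fold in each section.

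The remaining rises were *Lbp*, which encodes lipopolysaccharide-binding protein (log2 fold change 5.41), *Wfdc2*, a secreted WAP-domain gene (5.26), *Wdr86* (5.12), *Smim22*, a small membrane protein (5.10), *Ccdc153*, an ependymal marker (4.85), *Col8a2*, a collagen VIII chain (4.85), and *Prr32* (4.83). *Lbp* had 58.7 and 147 CPM against 3.39 and 1.14 CPM. *Ccdc153* had 46.7 and 79.3 CPM against 3.14 and 1.06 CPM. Like *Krt18*, the genes *Aqp1*, *Wfdc2*, *Wdr86* and *Prr32* passed the filter on low counts only through the choroid plexus-marker spots. *Kcne2*, *Lbp*, *Smim22*, *Ccdc153*, *Col8a2* and *Cldn2* reached the level of that filter in marker-free spots only in section 1. They too needed the choroid plexus-marker spots to pass it. The calls of all these genes are not used as support. The 15 rises kept their direction in each setting in which they were fitted, which was 14 of them with only 3 or 4 markers, 8 with all 4 sections and 7 in sections 2 and 3 alone. With only 3 or 4 markers *Aqp1*, *Smim22*, *Col8a2*, *Prr32* and *Cldn2* lost their call. In the annotation, *Calml4*, *Ttr* and *Wdr86* overlap *Gm10653*, *Gm16090* and *Nub1*, and how reads in such overlaps were counted is not given in the sources used here.

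**Figure D3:**
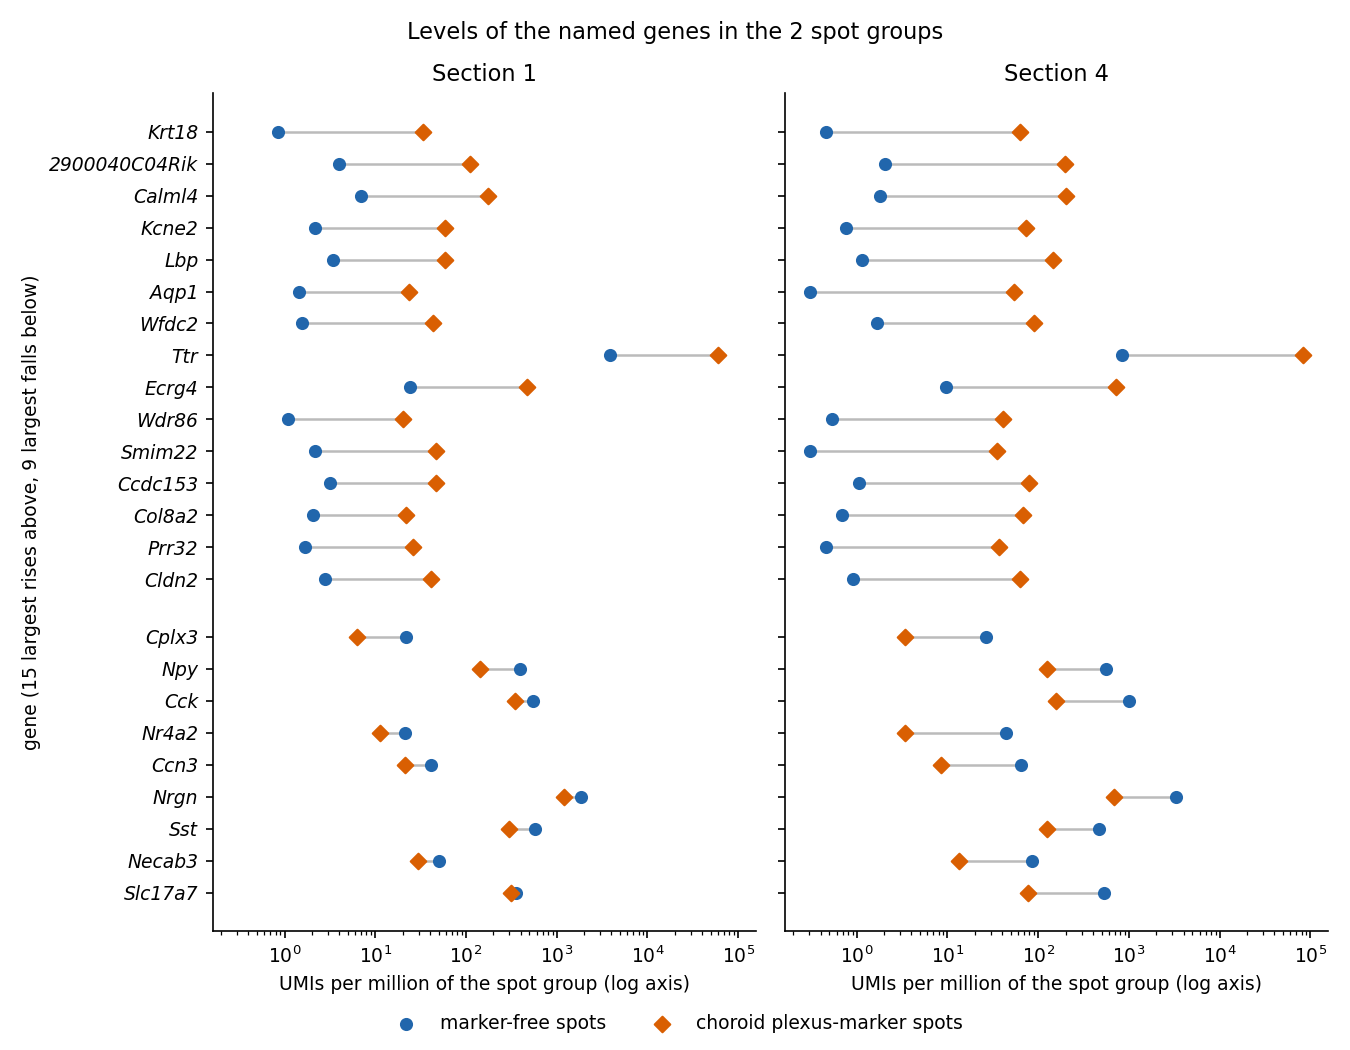
Level of the 15 genes with the largest rises and the 9 with the largest falls in choroid plexus-marker spots (diamonds) and marker-free spots (circles) of sections 1 and 4, in CPM on a log axis. Each rise was separated more widely in section 4 than in section 1, as was each fall, and *Slc17a7* stood at 317 and 354 CPM in section 1.

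The upstream sequence of the genes that rose was read because cilia genes and epithelial genes moved together. RFX factors bind the sequence around GTTGCC upstream of many cilia genes. This motif, searched on both strands in the 250 bases before the transcript start (RefSeq, GRCm38.p6), was present in 111 of 615 promoters of the higher genes (18.05%), in 10.96% of the promoters of all genes tested and in 10.4% of all 32851 promoters. The cilium list held it in 6 of 23 promoters (26.1%), and the 15 largest rises in 4 of 16, those of *Kcne2*, *Aqp1*, *Ccdc153* and *Prr32*. The OTX motif TAATCC was present in 5.85% of the promoters of higher genes and in 5.01% of those of all genes tested. Of the higher genes 483 of 630 had a promoter in the table. These are matches of letters and not binding sites, and no test was run on them. The 3 of the 4 promoters shown belong to a channel subunit, the water channel and an ependymal marker, all read on the plus strand, and the capitals mark GTTGCC or its reverse complement (chr16:92292139-92292388, chr6:55336049-55336298 and chr9:44240427-44240676):
Kcne2: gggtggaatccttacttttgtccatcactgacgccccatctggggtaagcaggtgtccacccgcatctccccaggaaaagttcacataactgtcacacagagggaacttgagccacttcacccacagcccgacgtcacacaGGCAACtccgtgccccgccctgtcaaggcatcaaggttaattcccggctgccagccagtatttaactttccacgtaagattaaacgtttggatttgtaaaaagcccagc
Aqp1: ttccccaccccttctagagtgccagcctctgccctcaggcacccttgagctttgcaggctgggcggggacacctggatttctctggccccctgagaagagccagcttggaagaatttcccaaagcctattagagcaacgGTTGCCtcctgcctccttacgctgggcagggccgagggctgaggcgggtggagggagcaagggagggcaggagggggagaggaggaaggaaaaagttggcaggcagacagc
Ccdc153: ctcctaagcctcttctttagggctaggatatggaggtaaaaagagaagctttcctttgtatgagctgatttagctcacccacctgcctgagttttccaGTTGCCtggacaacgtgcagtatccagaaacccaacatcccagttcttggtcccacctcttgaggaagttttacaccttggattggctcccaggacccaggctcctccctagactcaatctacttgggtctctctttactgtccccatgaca

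All 10 genes of a second list of choroid plexus epithelium genes were higher (*Ttr*, *Aqp1*, *Htr2c*, *Igfbp2*, *Cldn2*, *Kcne2*, *Calml4*, *Car12*, *Slc13a4* and *Wfdc2*), with a median log2 fold change of 5.01 against -0.05 for all genes tested. The smallest rise was that of *Htr2c*, the serotonin 2C receptor, which neurons also express. Its levels were 87.5 and 108 CPM against 44.5 and 15.8 CPM, a log2 fold change of 1.73 (SE 0.30, adjusted p = 0.000236). Each gene of the list was higher in both sections. *Aqp1* and *Wfdc2* passed the filter on low counts only through the choroid plexus-marker spots. *Kcne2* and *Cldn2* reached the level of that filter in marker-free spots only in section 1. The calls of these genes are included in the 10 and are not used as support.

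Of 16 secreted carriers and factors, 11 were higher and none lower, with a median log2 fold change of 1.70. *Enpp2* (ENSMUSG00000022425, chr15:54838901-54952789) had 2727 and 5388 CPM against 275 and 218 CPM, a log2 fold change of 3.93 (SE 0.32, adjusted p = 7.99e-10). *Igf2*, an insulin-like growth factor made by the plexus and by meningeal fibroblasts, had 125 and 322 CPM against 17.9 and 9.48 CPM, a log2 fold change of 3.87. *Igfbp2*, which binds it, had 233 and 582 CPM against 32.4 and 37.1 CPM, a log2 fold change of 3.37. *Rarres2*, the gene of the chemoattractant chemerin (ENSMUSG00000009281), had 124 and 142 CPM against 19.8 and 11.7 CPM, a log2 fold change of 3.05, and overlaps *Lrrc61* in the annotation. These 4 genes rose by less than *Ttr* and *Ecrg4*, and each was higher in both sections.

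Smaller rises in this list were those of *Spint2*, a protease inhibitor (2.27), *Sod3*, extracellular superoxide dismutase (1.80), *Bmp7*, a bone morphogenetic protein (1.59), *Timp3*, an inhibitor of matrix proteases (1.10), and *Clu*, the gene of clusterin (0.91). *Trf*, the transferrin gene that oligodendrocytes also express, had 192 and 501 CPM against 187 and 184 CPM, a log2 fold change of 0.69 (SE 0.27, adjusted p = 0.184). *Cst3*, the gene of cystatin C, had 3837 and 4044 CPM against 3946 and 3050 CPM (0.14, adjusted p = 0.904). *Vegfa*, a growth factor of vessels, also did not pass (0.20, adjusted p = 0.863). *Trf* was apart only in section 4, and the 2 groups of *Cst3* overlapped.

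Of 18 genes of ion and water transport, 8 were higher and none lower, with a median log2 fold change of 0.56. Next to *Aqp1* and *Kcne2*, the higher genes were *Trpv4*, an osmosensitive calcium channel (4.40), *Slc4a2*, an anion exchanger (3.17), the carbonic anhydrases *Car12* (2.98) and *Car14* (2.31), *Slc12a2*, the sodium-potassium-chloride cotransporter NKCC1 (1.56), and *Fxyd1*, a regulator of the sodium pump (1.49). The calls of *Aqp1* and *Kcne2* are not used as support, because of the filter on low counts as described above. *Slc4a2* had 101 and 221 CPM against 18.02 and 14.2 CPM. *Slc12a2* had 113 and 209 CPM against 57.1 and 43.6 CPM. Both carriers were apart in both sections, whereas *Slc4a10*, a bicarbonate carrier (0.59, adjusted p = 0.190), and *Clcn2*, a chloride channel (-0.25, adjusted p = 0.820), did not pass. *Atp1b1*, a subunit of the sodium pump that neurons express strongly, had 1371 and 1121 CPM against 1326 and 1604 CPM, a log2 fold change of -0.27 (SE 0.25, adjusted p = 0.740), and its groups overlapped.

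Of 20 nutrient and solute carriers, 19 passed the filter on low counts, and 8 of these were higher and none lower (median log2 fold change 1.12). The largest fitted change was that of *Slco1a5*, an organic anion transporter, with 12 and 6 UMIs in choroid plexus-marker spots and 0 and 1 in the far more numerous UMIs of marker-free spots. *Slc16a8*, a lactate transporter, had 14.7 and 43.8 CPM against 0.968 and 0.607 CPM, a log2 fold change of 5.05. *Slc13a4*, a sulfate transporter, had 40.4 and 105 CPM against 6.41 and 2.73 CPM, a log2 fold change of 3.81. The groups of both carriers were apart in each section. *Slco1a5* and *Slc16a8* passed the filter only through the choroid plexus-marker spots, so their calls, included in the 8, are not used as support.

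Other higher carriers were *Slc2a12*, a glucose transporter (log2 fold change 3.59), *Slc29a4*, a monoamine transporter (2.72), *Slc31a1*, the copper importer (2.34), and *Slco1c1*, a thyroid hormone transporter (2.05). *Slc2a1*, the glucose transporter of the blood-brain barrier, had 117 and 105 CPM against 105 and 70.5 CPM, a log2 fold change of 0.30 (SE 0.24, adjusted p = 0.683). *Slc23a2*, a vitamin C transporter, had 0.38 (adjusted p = 0.544). With at least 8 markers, 16 of the 19 were higher, and *Slc23a2* was among them (1.46, adjusted p = 0.000579).

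Of 13 receptors and endocytosis genes, 11 were tested, 4 were higher and none lower (median 0.69). They were *Lepr*, the leptin receptor (log2 fold change 2.98), *Dab2*, a clathrin adaptor (2.00), *Htr2c*, and *Bsg*, the chaperone of lactate transporters (0.95). *Lepr* was rare, with 8.09 and 10.1 CPM against 1.45 and 0.607 CPM. It passed the filter on low counts only through the choroid plexus-marker spots, so its call is not used as support. The insulin-like growth factor receptor gene *Igf1r* had 30.9 and 30.4 CPM against 33.4 and 35.3 CPM (-0.20, adjusted p = 0.849), so its levels lay close in all 4 sums while those of *Igf2* and *Igfbp2* did not. *Lrp2* and *Cubn* were too rare to test.

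Of 14 genes of epithelial junctions and keratins, 10 were tested, and 7 were higher and none lower (median 2.89). Beside *Krt18* and *Cldn2* they were *Cldn3* (5.56), *Krt8*, the partner of *Krt18* (4.93), *Cldn1* (3.08), *Cgnl1*, a paracingulin gene (2.69), and *Ocln*, the gene of occludin (2.28). *Krt8* had 17.7 and 27.0 CPM against 0.847 and 0.531 CPM. *Tjp1*, the gene of the junction scaffold ZO-1 that endothelium also uses, had 24.9 and 30.4 CPM against 28.1 and 32.0 CPM (-0.18, adjusted p = 0.869). *Krt18* and *Krt8* passed the filter on low counts only through the choroid plexus-marker spots. *Cldn2* reached the level of that filter in marker-free spots only in section 1. Their calls are included in the 7 and are not used as support. By level, these keratins and *Cldn2* were apart in both sections, and the scaffold gene *Tjp1* was not.

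Of 14 transcription factors linked to the choroid plexus, 9 were tested, and 5 were higher and none lower (median 1.94). *Msx1*, a homeobox gene of the dorsal midline, had 49.4 and 133 CPM against 3.99 and 3.26 CPM, a log2 fold change of 4.47 (SE 0.33, adjusted p = 1.16e-10). *Foxj1*, the regulator of motile cilia, had 43.7 and 72.5 CPM against 5.20 and 2.73 CPM (3.77). *Trp73* (2.95) and *Rfx2* (2.14), also of the ciliary programme, and *Zic1* (1.94) followed. *Zic1* had 99.2 and 77.6 CPM against 28.5 and 16.6 CPM and differed from *Msx1* in that its log2 fold change was lower, 1.46, with at least 8 markers, where that of *Msx1* was 6.21. *Rfx2* lost its call there (2.21, adjusted p = 0.132).

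Cilia genes formed another group. Of 22 genes of the motile axoneme and its assembly, 20 were tested, and 16 were higher and none lower, with a median log2 fold change of 3.26. All 20 had ratios above 0 in both sections. With at least 8 markers 17 of the 20 were higher, with a median of 4.51. The heavy chain genes of the dynein arms *Dnah11* (5.49), *Dnah6* (5.13) and *Dnah5* (2.64) were among them, as were *Cfap126* (4.74) and *Hydin* (4.50), which build the central apparatus and the basal part of the axoneme. *Cfap126* had 27.0 and 50.6 CPM against 2.06 and 0.683 CPM. The 4 that did not pass were *Dnaic1*, *Drc1*, *Ccdc39* and *Ift22*, the last with 96.5 and 94.4 CPM against 94.7 and 84.0 CPM. In marker-free spots *Cfap126* reached the level of the filter on low counts only in section 1, so its call is not used as support. How many of the 16 higher genes also needed the choroid plexus-marker spots to be tested was not counted.

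Ependymal marker genes were higher as well. With at least 8 markers all 8 on the list were also higher, with a median log2 fold change of 5.11. All 8 on the list (*Ccdc153*, *Tmem212*, *Dynlrb2*, *Rsph1*, *Foxj1*, *Mia*, *Pifo* and *Meig1*) were higher, with a median log2 fold change of 3.97, and their summed level was 407 and 636 CPM against 40.8 and 23.4 CPM. At least 3 of the 8 were detected in 87 of the 189 choroid plexus-marker spots of section 1 (46.0%) and 28 of the 76 of section 4 (36.8%), against 1.78% and 0.622% of marker-free spots. *Mia* and *Rsph1* were the most abundant in both sections, with 99.5 and 60.8 CPM in section 1 and 145 and 113 CPM in section 4. *Ccdc153* and *Tmem212* reached the level of the filter on low counts in marker-free spots only in section 1, so their calls are not used as support. Motile cilia are known in ependyma and, fewer, in the plexus, so the part of ependyma in the cilia counts cannot be told apart from that of the plexus in this comparison.

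For that reason choroid plexus-marker spots were also compared with ependymal-marker spots, which had none of the 10 choroid plexus markers and at least 3 of the 8 ependymal ones. They were few, 11 in section 1 and 6 in section 4, with 257132 UMIs in all. Of 6659 genes tested with the 8 ependymal markers left out, 43 were higher (0.646%) and 3 lower (0.0451%) in choroid plexus-marker spots, and 508 had an unadjusted p under 0.05. Since the ependymal-marker spots also had to lack the 10 markers, genes of the same cells are drawn apart by that choice here too. On the second epithelium list 8 of the 9 genes tested were higher, while *Htr2c* had a log2 fold change of 0.75 (adjusted p = 0.708). Among the 8, *Car12* and *Wfdc2* had no UMI in ependymal-marker spots, so their calls are not used as support. The 43 hold further genes with no UMI there, described below. How many others of the 8 or of the 43 passed the filter on low counts only through the choroid plexus-marker spots was not counted. None of the 4 cilium genes tested passed, with a median of 0.88 against 0.07 for all genes tested. In simulated counts this comparison recovered only 10 of 173 genes with a log2 change of 1, so not passing does not show equal levels.

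The 5 largest rises against ependymal-marker spots had no UMI in those spots, so the folds are lower limits, set against 3 UMIs over the group. These genes passed the filter on low counts only through the choroid plexus-marker spots, so their calls are not used as support and their p-values are left out. *2900040C04Rik* was at least 10.5-fold higher, and *Car12* at least 6.85-fold. *Wfdc2* was at least 4.30-fold higher, *Krt18* at least 3.27-fold and *Pcolce2*, an enhancer of procollagen processing, at least 3.12-fold. Secreted products were measured on both sides. *Ttr* had 60246 and 83244 CPM against 4942 and 1323 CPM in ependymal-marker spots, a log2 fold change of 5.03 (SE 0.51, adjusted p = 1.42e-07), and *Enpp2* had 2727 and 5388 CPM against 388 and 209 CPM, one of 3.84 (SE 0.36, adjusted p = 3.55e-08).

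Of the 12 secreted genes tested against ependymal-marker spots, 6 were higher and none lower. *Ecrg4* had a log2 fold change of 5.07, *Igfbp2* one of 4.14, *Igf2* one of 3.03 and *Clu* one of 1.13. *Rarres2* did not pass (0.53, adjusted p = 0.809), nor did *Spint2* (1.43), *Trf* (1.39), *Timp3* (1.05), *Cst3* (0.40) and *Gpx3* (-0.80). *Zic1* had -0.21 (adjusted p = 0.952). The 3 lower genes were *Ccn3*, a matricellular protein (log2 fold change -1.79), *Nptxr*, the neuronal pentraxin receptor (-1.43), and *Resp18*, an endocrine secretory gene (-1.18). All 3 were lower in both sections, which was a condition for naming them.

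Among the genes that fell against marker-free spots, those of neurons led. *Cplx3*, a complexin, had 6.29 and 3.37 CPM against 21.9 and 26.3 CPM, a log2 fold change of -2.08 (SE 0.37, adjusted p = 0.000279). *Npy*, the neuropeptide Y gene, had 141 and 125 CPM against 392 and 562 CPM (-1.84). *Sst*, the somatostatin gene, had 301 and 126 CPM against 578 and 464 CPM (-1.41). All 3 fell in both sections, which was a condition for naming them. The level of *Cplx3* in the choroid plexus-marker spots of section 4 rests on 2 UMIs, as does that of *Nr4a2*, named next. Next came *Cck*, the cholecystokinin gene (-1.65), *Nr4a2*, a nuclear receptor (-1.57), *Ccn3* (-1.54), *Nrgn*, the gene of the calmodulin-binding neurogranin (-1.47), *Necab3*, a calcium-binding protein (-1.38), and *Slc17a7*, the vesicular glutamate transporter VGLUT1 (-1.35).

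Section 4 carried more of these falls. *Nrgn* had 1201 CPM against 1869 in section 1 and 688 against 3259 in section 4. *Slc17a7* had 317 against 354 CPM in section 1, a log2 ratio of -0.16, and 77.6 against 536 CPM in section 4, one of -2.77. The call of *Slc17a7* was lost with total-UMI scaling (adjusted p = 0.150), with DESeq2 (adjusted p = 0.9995) and against all other spots (adjusted p = 0.0724), and without the section as a block 8 of the 10 falls lost theirs. Of the 10 neuronal markers *Snap25*, *Slc17a7* and *Nrgn* were lower and none higher (median -0.77), and with at least 8 markers 9 were lower (median -1.82).

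Oligodendrocyte genes went opposite ways in the 2 sections. None of the 8 markers passed the test (median 0.31). All 8 were lower in choroid plexus-marker spots of section 1 (median log2 ratio -0.36) and all 8 higher in section 4 (1.11). *Mbp* had 1544 against 1991 CPM in section 1 and 2941 against 1478 CPM in section 4. When at least 8 markers were required, 7 of the 8 were lower, with a median log2 fold change of -1.38. The summed level of these markers moved with the rises of section 4, where it was 7307 against 3397 CPM, and its part in them was not tested.

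Among the lists of fibroblasts, vessels, macrophages, microglia and blood, only that of fibroblasts held genes that passed the test with at least 3 markers. Of 9 fibroblast genes tested, *Col1a2* (1.49), *Lum*, a small proteoglycan (2.74), and *Igf2*, which the epithelium also makes, were higher, and the summed level was 180 and 406 CPM against 51.8 and 30.8 CPM. Without *Igf2*, which made up most of it in choroid plexus-marker spots, the sum was 55.1 and 84.3 CPM against 33.9 and 21.3 CPM. *Col1a1* had 1.80 and 8.43 CPM against 1.33 and 1.44 CPM (1.36, adjusted p = 0.507). None of the 10 endothelial genes passed (median -0.03), nor did either of the 2 fenestrated endothelium genes tested, *Plvap* and *Plpp3*. None of the 8 microglial genes (median -0.17), the 4 border macrophage genes tested (0.42) or the 2 erythrocyte genes tested (-0.28) passed. Border macrophage genes summed to only 15.9 and 16.9 CPM. With at least 8 markers 2 of the 10 endothelial genes were higher, *Kdr* (2.76) and *Emcn* (2.25), and 1 of the 8 microglial genes, *P2ry12*, was lower (-1.41). Of the 7 fibroblast genes tested at that setting, 4 were higher, with a list median of 2.57.

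Class II antigen presentation genes stood out in their list. Of 12 genes of MHC and complement tested, *Cd74*, the invariant chain (1.96), *H2-Ab1* (1.85) and *H2-Eb1* (1.83) were higher and none lower. *Cd74* had 28.2 and 21.9 CPM against 7.38 and 5.01 CPM (adjusted p = 0.000222). *H2-Ab1* had 14.1 and 5.06 CPM against 2.78 and 2.81 CPM (adjusted p = 0.0255), and the section 4 level rests on 3 UMIs. The complement genes *C1qa*, *C1qb* and *C1qc*, which microglia and macrophages make, had log2 fold changes of -0.21, -0.12 and -0.33. In spots with at least 8 markers 7 of the 12 were higher, among them *H2-K1* of class I (1.83).

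Astrocyte genes did not move as a group. *Gfap*, the intermediate filament of astrocytes, had 45.8 and 60.7 CPM against 27.5 and 22.4 CPM, a log2 fold change of 0.99 (SE 0.26, adjusted p = 0.0153). The other 7 astrocyte genes did not pass, and with at least 8 markers 4 of the 8 were lower. *Prkcd*, a protein kinase C gene of the thalamus list, had 66.2 and 48.9 CPM against 16.2 and 8.65 CPM (2.17, adjusted p = 1.15e-06). Against ependymal-marker spots it had a log2 fold change of 0.01 (adjusted p = 0.998). The other 4 thalamic genes tested and all those of hippocampus (5 tested) and striatum (6 tested) did not pass. In the spots with at least 8 markers 4 of the 6 striatal genes were lower (median -1.63), and of the thalamic genes *Prkcd* was higher and *Tac2* lower. None of the 8 genes of oligodendrocyte precursors passed (median -0.14).

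Housekeeping groups were close to the median of all genes. None of 14 metal handling and antioxidant genes (median 0.16), 20 genes of the secretory pathway of the endoplasmic reticulum (0.06) or 95 ribosomal protein genes (0.00) passed. The 13 mitochondrially encoded protein genes had a median of -0.37 with all ratios below 0 in both sections, and none passed. With at least 8 markers 6 of these 13 were lower, 4 of the 20 genes of the secretory pathway were higher (*Hspa5*, *Pdia3*, *Pdia4* and *Hsp90b1*), as was *Cat* of the antioxidant list, and 1 ribosomal protein gene moved each way. Of 97 nuclear genes of the respiratory chain, 3 were higher and none lower, a share below the 4.65% of all genes tested. They were *Cox8b* (3.75), *Cox6b2* (2.62) and *Cox7a1* (1.24), subunits or isoforms of cytochrome oxidase known from muscle, heart or testis, and chosen for naming after their values were seen. *Cox8b* had 37.4 and 96.1 CPM against 4.84 and 3.79 CPM (adjusted p = 3.79e-09).

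**Figure D4:**
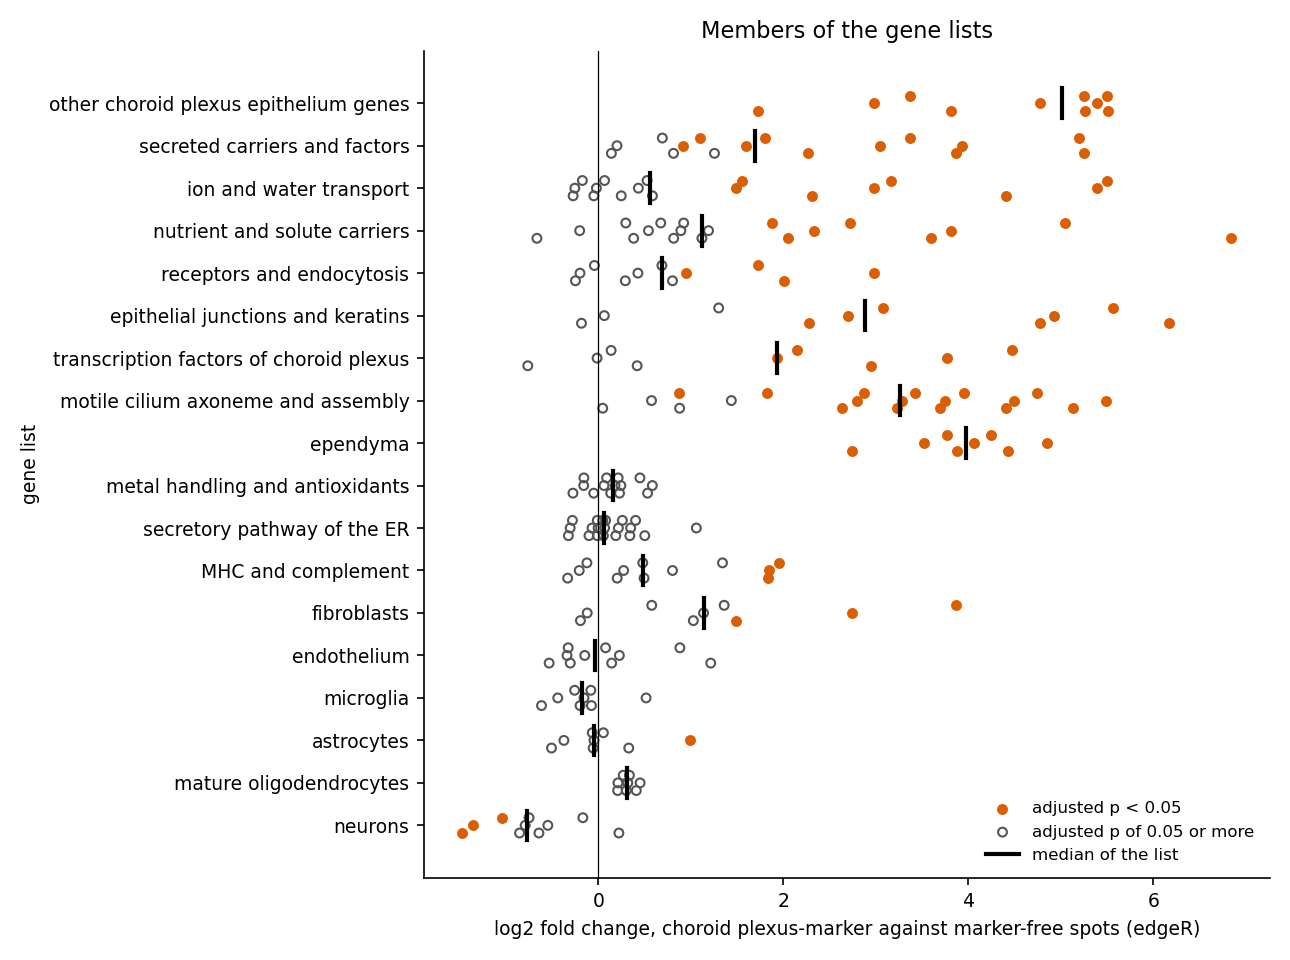
Log2 fold change (edgeR) of choroid plexus-marker against marker-free spots for each tested member of 18 gene lists, filled where the adjusted p-value is under 0.05, with the median of each list as a bar. The lists of epithelium, cilia and ependyma lie to the right, with medians of 5.01, 3.26 and 3.97, the neuron list to the left (-0.77) and the housekeeping lists near 0.

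*Nf1* itself was sparse. In section 1 it had 34 UMIs in choroid plexus-marker spots (10.2 CPM) and 56 in marker-free spots (6.77 CPM). In section 4 it had 0 of 592969 UMIs in choroid plexus-marker spots, which allows up to 5.06 CPM (3 UMIs, counting error only), and 76 UMIs (5.76 CPM) in marker-free spots. Of the 34 UMIs of section 1, 19 lay in spots with 3 markers, 8 with 4, 5 with 5 to 7 and 2 (2.94 CPM) with 8 to 10. The ratios of the 2 sections thus had opposite signs on few UMIs, most of them from spots with 3 or 4 markers. The log2 fold change was 0.02 (SE 0.51, adjusted p = 0.996). With every section heterozygous, no comparison with wild-type choroid plexus could be made.

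The few choroid plexus-marker spots of the other sections were not used in the comparison. In section 3, where 7 spots held 71627 UMIs, *Ttr* stood at 8740 CPM against 32.2 CPM in marker-free spots, and 11 of the 15 genes with the largest rises had UMIs there (73.3%), close to the 71.8% of all genes tested. *2900040C04Rik* had 37 UMIs and *Calml4* 33. In section 2 the 4 spots had 3 *Ttr* UMIs (36.4 CPM), only 4 of the 15 genes had any UMI, and the label choroid plexus was not borne out. Of the 630 higher genes, 479 had UMIs in the spots of section 3 (76.0%), near that background, and 251 in those of section 2 (39.8%), below the 69.6% of all genes tested there. Of the 10 largest falls, 1 had a log2 ratio above 0 in section 2 (*Nr4a2*, 0.71) and 2 in section 3 (*Npy*, 0.41, and *Sst*, 0.11). A fit to these 2 sections alone called no gene, with 574 at an unadjusted p under 0.05.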

How the data were processed

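Visium libraries of 4 *Nf1*+/- brain sections were analysed. Per the submitters' processing notes the authors ran Space Ranger 1.3.1 and used mm10, and they deposited raw UMI counts of 32285 genes per spot, without normalization. Spots with at least 500 UMIs were grouped by detected markers, the counts of each group were added up within a section, and edgeR 4.0.16 in R 4.3.3 was run (filterByExpr, TMM, section block, quasi-likelihood test, 1 residual degree of freedom moderated across genes, Benjamini-Hochberg adjustment over all genes tested). Genes that chose the spots of either group stayed in library sizes but were not tested. Some genes rare in marker-free spots passed filterByExpr only through the choroid plexus-marker spots. Among them were *Krt18*, *Krt8*, *Aqp1*, *Wfdc2*, *Wdr86*, *Prr32*, *Slc16a8*, *Slco1a5* and *Lepr*. The filter asks for a minimum level in at least 2 of the 4 sums. Other genes reached it in marker-free spots only in section 1, among them *Kcne2*, *Lbp*, *Smim22*, *Ccdc153*, *Col8a2*, *Cldn2*, *Tmem212* and *Cfap126*. Calls of either kind are not used as support. Standard errors are the log2 fold change over the square root of F. Per-section log2 ratios add 0.5 UMI to each count. Because both sums of a section share its tissue, they are paired. Across genes, their departures from group means had a correlation of 0.0679. Counts of sections 1 and 4 differed more than sampling allows (13.2 for chi-square divided by its degrees of freedom) and were counted as 2 samples.

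Named genes are the 10 strongest falls and the 15 strongest rises that passed an adjusted p of 0.05 with the same direction in both sections and at least 20 CPM in the higher group of each, the 5 largest of each kind against ependymal-marker spots, list members, 4 genes the study names and *Nf1*. The 25 lists and 3 gene families, like the spots themselves, were chosen with earlier results of these data known. The test was tried on simulated counts with the same spread for all genes. At a log2 change of 1 it recovered 44 of 193 changed genes against marker-free spots and 10 of 173 against ependymal-marker spots. At a log2 change of 2 it recovered 171 of 193 and 154 of 177. A gene that did not pass may therefore still differ by a log2 change near 1. Alternatives were total-UMI scaling, DESeq2 1.42.0, no filter, no block, other marker numbers, all spots, all 4 sections, other comparison spots, thinning to 5000 UMIs before markers were counted, and each section left out. Spot positions and outlines were not used. Gene coordinates and promoters come from RefSeq (GRCm38.p6). Intervals and limits from counts cover counting error only. Members of these lists that are not named, among them 1 of the 10 falls, are not reported here.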

Additional observations from a re-analysis of the deposited data

Results flagged for a closer look

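The marker-free level over the 4 sections was compared for 20 values, and in 3 of them the gap of section 1 to the nearest of the others took up most of the range over the 4 sections, where chance gives about 1. *Smim22* stood at 2.18 CPM in the marker-free spots of section 1 against 0.244, 0.481 and 0.303 CPM in sections 2, 3 and 4. *Col8a2* stood at 2.06 CPM against 0.487, 0.481 and 0.683 CPM. Both are among the 15 largest rises in choroid plexus-marker spots. *Nf1* stood at 6.77 CPM in section 1 against 5.61, 5.77 and 5.76 CPM, a small difference that rests on 56 UMIs in section 1.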

How the results depend on the processing

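The counts of genes higher and lower in choroid plexus-marker than in marker-free spots (630 and 74) came to 555 and 18 with total-UMI scaling, 379 and 9 with DESeq2, 741 and 172 without the filter, 457 and 50 with at least 2 markers, 1232 and 886 with at least 5, 619 and 69 with all spots, 550 and 413 with all 4 sections, 577 and 43 against all other spots, 654 and 303 against marker-free spots of like depth, 1512 and 1695 with markers counted after thinning, 1108 and 1087 with at least 8 markers, 54 and 14 with 3 or 4 markers, and 0 and 0 in sections 2 and 3 alone. Without the section as a block, which the pairing of sums calls for, they were 344 and 3. The higher genes shared with the 630 numbered 379 with DESeq2, 605 with at least 5 markers and 618 after thinning. Settings of at least 8 and of 3 or 4 markers were added after the data were seen. The prior degrees of freedom of the spread were 26.9 in the main fit. They were infinite with at least 5, at least 8 or 3 or 4 markers, like depth, thinning or no filter. Those fits used only a spread shared across genes, so their counts are not on the same footing as 630 and 74. Against ependymal-marker spots the counts (43 and 3) were 41 and 32 with total-UMI scaling, 5 and 0 with DESeq2, which gave no adjusted p for 4518 genes, 61 and 4 without the filter, 13 and 0 without the block, 25 and 4 with at least 2 markers, 221 and 72 with at least 5, 281 and 219 with at least 8, 8 and 3 with all 4 sections, and 157 and 4 with at least 2 ependymal markers. At an unadjusted p under 0.05, DESeq2 had 84 genes there and the fit without the block 470. The prior degrees of freedom against ependymal-marker spots were 28.7 in the main fit. They were infinite with total-UMI scaling, no filter or at least 2 markers, so those counts are not on the same footing as 43 and 3.

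The fitted log2 fold changes of the 15 largest rises and 10 largest falls kept their direction wherever they were fitted. Of the rises these were 8 with all 4 sections, 7 in sections 2 and 3, 14 with 3 or 4 markers and 15 elsewhere. A call was lost in 12 gene-setting pairs of the rises and 25 of the falls. Taken by section, *Nr4a2* in section 2 and *Npy* and *Sst* in section 3 had ratios above 0. *Nf1*, never called, changed sign in 7 settings: -0.56 with DESeq2, -0.51 with at least 5 markers, -0.11 with all 4 sections, -0.076 against all other spots, -0.19 after thinning, -1.27 with at least 8 markers and -9.09 in sections 2 and 3, where its choroid plexus-marker spots had no UMI. The cause of these shifts was not tested. Leaving out a section leaves no degrees of freedom, so it gives ratios and no counts. With 265 spots and 2 sections, the shallow sum of section 4 limits rare genes.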
